A study of Homo sapiens with 9 samples.

Results

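The 9 genes that make serine and pass its one-carbon units through folate were followed in KG-1a cells, a CD34-expressing line of immature human acute myeloid leukaemia cells, with and without an edited PRMT2 gene. They were PHGDH, PSAT1, PSPH, SHMT1, SHMT2, MTHFD1, MTHFD1L, MTHFD2 and ALDH1L2, matched by symbol among the 60605 genes of the deposited table, and all 9 passed the filter on low counts. The list was chosen by pathway with the levels of these genes in the same libraries already known, that is, selected on these CPM values and fold changes, so their differences are given as descriptions, with intervals and without p-values.

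Serine is made from the glycolytic intermediate 3-phosphoglycerate by PHGDH, which oxidises it in the first committed step, PSAT1, which adds the amino group, and PSPH, which removes the phosphate. SHMT2 in mitochondria and SHMT1 in the cytosol split serine into glycine and a one-carbon unit carried by folate. In mitochondria MTHFD2 oxidises that unit and MTHFD1L releases it as formate, or ALDH1L2 oxidises it to CO2, while MTHFD1 takes formate back onto folate in the cytosol for purine and thymidylate synthesis. Cells with little PHGDH generally depend on serine from the medium.

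RNA sequencing of total RNA compared 3 groups of 3 libraries: PRMT2 knockout clone 1 and PRMT2 knockout clone 2, each a single clone made with CRISPR/Cas9, and PRMT2 wild-type (WT) cells of the same line. PRMT2 encodes an arginine methyltransferase. All cells were grown in RPMI 1640 medium with fetal bovine serum, and none received a drug. Neither separate cultures for the replicates nor cloning of the WT cells is stated in the labels, and p-values then measure only the spread between these samples, which may be technical. Both clones were compared with the same WT libraries, so the comparisons are not independent, and an effect of PRMT2 loss and a difference between clones of the line cannot be told apart within 1 clone.

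Between 28006342 and 43149410 read pairs were counted on the transcribed strand of genes per library. Levels are CPM, the counts per 1000000 counted pairs on scaled library sizes, given as mean ± SD (n = 3). PRMT2 itself was at 20.7 ± 0.544 CPM in KO clone 1, 21.2 ± 0.153 CPM in KO clone 2 and 39.4 ± 0.393 CPM in WT, so its RNA was lower in both clones but not absent. KO clone 1 replicate 1 stood apart, with 13.3% of its pairs aligned to several places (3.86% to 4.51% elsewhere) and 27302 CPM of mitochondrial ribosomal RNA against 29.9 to 92.9 CPM. The 5 blood cell and KG-1a markers (PTPRC, CD34, SPN, CD44 and RUNX1) summed to 3567 to 3709 CPM in KO clone 1, 3360 to 3488 CPM in KO clone 2 and 3242 to 3268 CPM in WT. The 24 markers of other cell types summed to 248 to 252 CPM in KO clone 1, 295 to 311 CPM in KO clone 2 and 499 to 536 CPM in WT. Of these 24 markers, 14 were below 0.1 CPM in KO clone 1, 12 in KO clone 2 and 10 in WT, and HBB had no count in any library. Most of the sum came from lymphoid genes: CD3D was at 119 CPM in KO clone 1, 149 CPM in KO clone 2 and 290 CPM in WT, and NKG7 at 50.3 CPM in KO clone 1, 77.7 CPM in KO clone 2 and 115 CPM in WT. CD7, also lymphoid, stayed near WT, at 63.2 CPM in KO clone 1, 54.2 CPM in KO clone 2 and 59.5 CPM in WT. Its log2 fold change in the mean of both clones was -0.02 (edgeR adjusted p = 0.778). CD3D, CD3E and the monocyte gene CSF1R were called lower in the mean of both clones (edgeR adjusted p = 3.34e-31, 2.92e-29 and 0.00991), by -1.12, -1.69 and -1.51 on the log2 scale. For CSF1R the mean rests on KO clone 1, with 4 counts there, 48 in KO clone 2 and 43 in WT. In KO clone 2 CSF1R differed from WT by 0.03 (edgeR adjusted p = 0.965). The part of these markers in the results was not tested. In bulk RNA, fewer cells of a type and less RNA per cell cannot be told apart.

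PHGDH (ENSG00000092621, chr1:119648411-119744218, plus strand, GRCh38) was almost silent in both clones. It had 0.293, 0.217 and 0.276 CPM in KO clone 1, 0.0485, 0.0534 and 0.117 CPM in KO clone 2, and 10.8, 10.7 and 10.1 CPM in WT. All 6 knockout libraries lay far below all 3 WT libraries, and those of KO clone 2 lay below those of KO clone 1. In counted read pairs these were 24 over the 3 libraries of KO clone 1, 9 over those of KO clone 2 and 1180 over those of WT. Replicates 1 and 2 of KO clone 2 had 2 counts each, under the floor of 3 counts. The order of the clones and the level in KO clone 2 are uncertain to that extent. The level was 2.51% of WT in KO clone 1 and 0.735% of WT in KO clone 2. The log2 fold change was -5.32 in KO clone 1, where an exact 95% interval from the counts alone ran from -5.99 to -4.76. It was -7.09 in KO clone 2, with a counting interval of -8.29 to -6.22, and -7.60 without KO clone 2 replicate 3. Standard errors of the fit are not given for PHGDH, since they came out smaller than the counting error. Of the 20655 genes tested, 91 had a larger fall in KO clone 1 and 39 in KO clone 2. The authors' deposited table, which counts read pairs without regard to strand and compares both clones together with WT, gives PHGDH a log2 fold change of -5.82 (SE 0.516, a value without shrinkage by that table's own test statistic).

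The promoters of PHGDH, the gene whose RNA was nearly lost, and of PSAT1 and MTHFD2, whose RNA stayed high, are set side by side below to show what their sequences share. Each run is the 250 bases before the RefSeq gene start (RefSeq, GRCh38.p14, 5′ to 3′ on the plus strand). It is chr1:119711684-119711933 for PHGDH, chr9:78296875-78297124 for PSAT1 and chr2:74198365-74198614 for MTHFD2. Capitals mark CCAAT, the only motif of the 4 searched that matched in these 3 windows.
PHGDH: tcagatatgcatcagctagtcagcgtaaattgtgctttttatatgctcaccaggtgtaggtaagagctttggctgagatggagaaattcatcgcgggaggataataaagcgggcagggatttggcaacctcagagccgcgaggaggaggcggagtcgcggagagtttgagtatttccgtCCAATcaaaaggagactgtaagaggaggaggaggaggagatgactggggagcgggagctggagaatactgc
PSAT1: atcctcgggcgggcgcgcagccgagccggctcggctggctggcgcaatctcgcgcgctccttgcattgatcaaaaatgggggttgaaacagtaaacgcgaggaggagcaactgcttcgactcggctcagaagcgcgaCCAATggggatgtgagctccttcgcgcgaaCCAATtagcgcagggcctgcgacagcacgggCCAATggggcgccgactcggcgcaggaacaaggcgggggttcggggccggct
MTHFD2: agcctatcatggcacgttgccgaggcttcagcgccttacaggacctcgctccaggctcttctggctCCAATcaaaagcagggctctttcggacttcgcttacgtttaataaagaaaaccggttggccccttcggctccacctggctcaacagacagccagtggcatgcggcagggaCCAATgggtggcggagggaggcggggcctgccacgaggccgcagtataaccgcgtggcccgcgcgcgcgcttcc
The motifs searched on both strands were TGATGNAA (the core of the element bound by ATF4 with C/EBP proteins), CACGTG (the E-box bound by MYC proteins), TGACGTCA (the cAMP response element) and CCAAT (bound by NF-Y); none of these contains another. PHGDH had 1 CCAAT, beginning 71 bases before the start, PSAT1 had 3 and MTHFD2 had 2. MTHFD1L has 4 windows in the table, and a gene was counted where any of its windows held the motif. CCAAT was present in 6 of the 6 genes found and in 32.0% of all 35116 windows of that length. TGATGNAA was present in 1 of 6, MTHFD1L, in 2 of its 4 windows, and in 3.14% of all windows, CACGTG in 2 of 6, MTHFD1 and MTHFD1L, and in 6.34%, and TGACGTCA in 0 of 6 and in 1.65%. The PHGDH window was 51.2% G and C with 11 CpG, against 65.6% and 30 for PSAT1, 62.4% and 21 for MTHFD2, and medians of 58% and 11 over all windows. PSPH, SHMT2 and ALDH1L2 were not matched. These matches are letters in a window and were not tested as binding sites.

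The RNAs of the other 2 steps of serine synthesis stayed near their WT level. PSAT1 (ENSG00000135069, chr9:78297125-78330093, plus strand) had 41.2, 43.6 and 44.2 CPM in KO clone 1, 51.7, 54.3 and 54.1 CPM in KO clone 2, and 50.5, 55.6 and 53.4 CPM in WT. The libraries of KO clone 1 were all below WT, as in 22.6% of all genes tested, and those of KO clone 2 lay within the WT range. Its log2 fold change was -0.31 (SE 0.046, 95% interval -0.40 to -0.21) in KO clone 1 and 0.00 (SE 0.044, -0.09 to 0.09) in KO clone 2. PSPH (ENSG00000146733, chr7:56011051-56051604, minus strand) had 9.15, 10.5 and 11.0 CPM in KO clone 1, 10.2, 12.4 and 10.4 CPM in KO clone 2, and 11.3, 10.2 and 10.3 CPM in WT. The 3 groups overlapped, and the 95% intervals of its log2 fold change were -0.24 to 0.13 in KO clone 1 and -0.14 to 0.23 in KO clone 2. Of the 3 serine synthesis genes, PHGDH alone differed by 1 or more on the log2 scale in either clone.

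**Figure D1:**
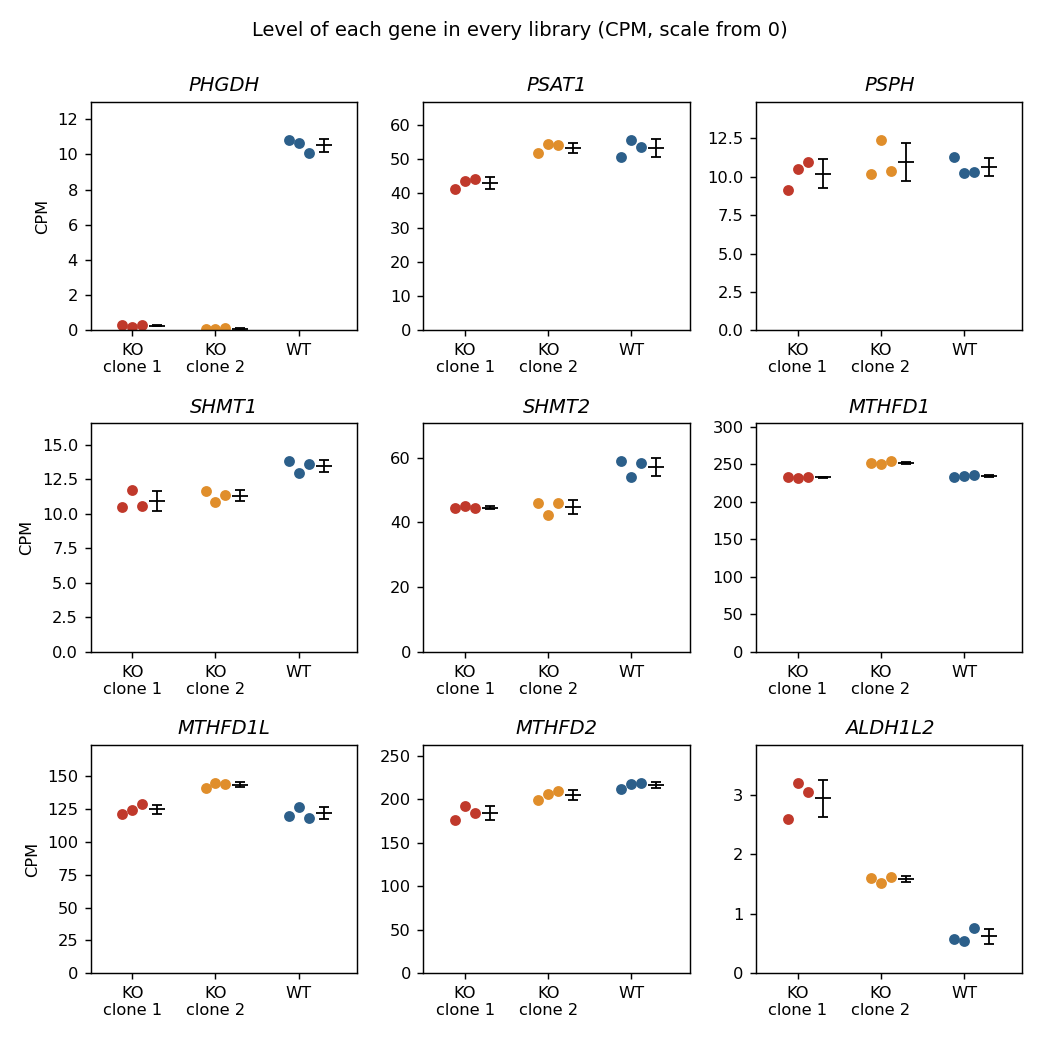
Level of each of the 9 genes in every library (CPM, each axis from 0), with KO clone 1, KO clone 2 and WT from left to right; points are libraries and the bar beside them is the mean ± SD (n = 3). PHGDH is near 0 in both clones, ALDH1L2 is higher in both, and the other 7 genes stay near their WT level.

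The serine-splitting enzymes were modestly lower in both clones. SHMT2 (ENSG00000182199, chr12:57229573-57234935, plus strand) had 44.4, 45.0 and 44.3 CPM in KO clone 1, 45.9, 42.2 and 46.0 CPM in KO clone 2, and 58.9, 53.9 and 58.4 CPM in WT. All 6 knockout libraries were below all 3 WT libraries, at 78.2% of WT in KO clone 1 and 78.4% in KO clone 2. Its log2 fold change was -0.35 in each clone (95% intervals -0.45 to -0.26 in KO clone 1 and -0.44 to -0.26 in KO clone 2). SHMT1 (ENSG00000176974, chr17:18327860-18363563, minus strand) had 10.5, 11.7 and 10.6 CPM in KO clone 1, 11.7, 10.9 and 11.4 CPM in KO clone 2, and 13.8, 13.0 and 13.6 CPM in WT. Its 6 knockout libraries were also all below WT, with log2 fold changes of -0.30 (SE 0.082) in KO clone 1 and -0.25 (SE 0.079) in KO clone 2. Neither gene reached a log2 fold change of 1.

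The mitochondrial and cytosolic folate enzymes kept high levels, with small differences that were not the same in both clones. MTHFD2 (ENSG00000065911, chr2:74186172-74217565, plus strand) had 176.5, 191.8 and 184.7 CPM in KO clone 1, 198.9, 205.7 and 209.4 CPM in KO clone 2, and 212.2, 217.7 and 218.6 CPM in WT. All 6 knockout libraries were below WT, with log2 fold changes of -0.23 (SE 0.032) in KO clone 1 and -0.08 (SE 0.031) in KO clone 2. MTHFD1L (ENSG00000120254, chr6:150865679-151101887, plus strand) averaged 125 ± 3.48 CPM in KO clone 1, 143 ± 1.94 CPM in KO clone 2 and 122 ± 4.53 CPM in WT. MTHFD1 (ENSG00000100714, chr14:64388031-64463457, plus strand) averaged 233 ± 0.777 CPM in KO clone 1, 252 ± 1.45 CPM in KO clone 2 and 234 ± 1.48 CPM in WT. For both genes the KO clone 2 libraries were all above WT, as in 19.5% of all genes, by 0.24 (SE 0.033) for MTHFD1L and 0.11 (SE 0.030) for MTHFD1 on the log2 scale, whereas KO clone 1 differed from WT by 0.04 and -0.01.

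ALDH1L2 (ENSG00000136010, chr12:105019784-105107643, minus strand), the mitochondrial enzyme that oxidises formyl-folate to CO2, was higher in both clones, from a low level. It had 2.60, 3.20 and 3.04 CPM in KO clone 1, 1.60, 1.52 and 1.61 CPM in KO clone 2, and 0.574, 0.536 and 0.770 CPM in WT. All 6 knockout libraries were above all 3 WT libraries, and KO clone 1 was above KO clone 2. The log2 fold change was 2.25 (SE 0.210, 95% interval 1.82 to 2.67), or 4.75-fold, in KO clone 1 and 1.35 (SE 0.221, 0.90 to 1.79), or 2.54-fold, in KO clone 2. This rise rests on the strand of the reads. Summed over 3 libraries, ALDH1L2 had 273 read pairs on its own strand in KO clone 1, 192 in KO clone 2 and 69 in WT. On the opposite strand, where C12orf45 and WASHC4 overlap it, there were 619 in KO clone 1, 857 in KO clone 2 and 782 in WT, or 80.9% of its stranded pairs over all libraries. In the other 8 genes that share was between 0.155% (MTHFD1L) and 10.5% (MTHFD1). Counted without regard to strand, ALDH1L2 changed by only 0.36 in KO clone 1 and 0.18 in KO clone 2 on the log2 scale and was not called, and the authors' deposited table gives it 0.27 (SE 0.108).

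**Figure D2:**
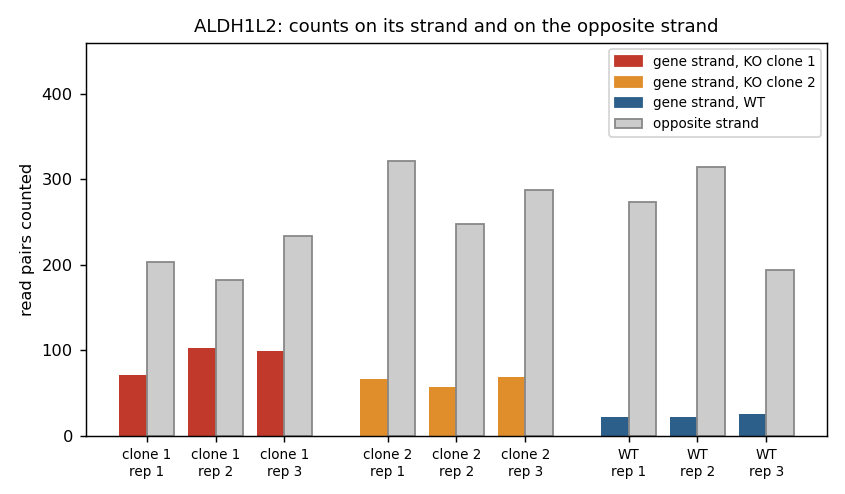
Read pairs counted for ALDH1L2 in each library, on the strand of the gene (coloured) and on the opposite strand (grey), KO clone 1, KO clone 2 and WT from left to right. The coloured bars reach 71 to 103 in KO clone 1, 57 to 69 in KO clone 2 and 22 to 25 in WT, and the grey bars are taller in every library.

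A gene was called at an adjusted p under 0.05 and a log2 fold change of 1 or more in size, in edgeR's quasi-likelihood test with Benjamini-Hochberg adjustment over all genes. In KO clone 1, 2 of the 9 genes were called, 1 higher and 1 lower, where 7.58% of all genes tested were called, 2.6% higher and 4.98% lower. In KO clone 2 it was again 2 of 9, against 5.96% (1.83% higher and 4.13% lower), and the same 2 genes, PHGDH and ALDH1L2, were called in both clones, against 4.34% of all genes called in both in 1 direction. In 5 of the 9 genes the 6 knockout libraries did not overlap WT, against 24.9% of all genes. Since the members were chosen with these values known, nothing is read from these shares. PHGDH passed the filter on low counts only through WT, so its call in each clone is a description. The median log2 fold change of the 9 genes was -0.23 in KO clone 1 and 0.00 in KO clone 2, and that of all genes was 0.00 in both.

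**Figure D3:**
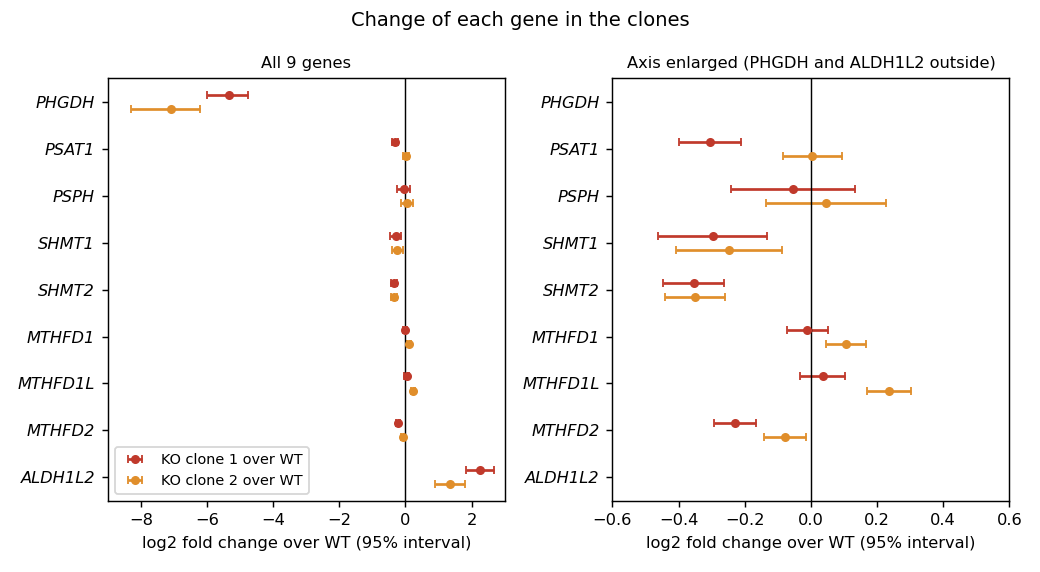
Log2 fold change over WT of each gene in KO clone 1 and KO clone 2, with 95% intervals (from the fit, or for PHGDH from the counts alone), on the whole range (left) and enlarged (right, without PHGDH and ALDH1L2). PHGDH lies at -5.32 and -7.09 and ALDH1L2 at 2.25 and 1.35, while the other 7 genes lie between -0.35 and 0.24.

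**Figure D4:**
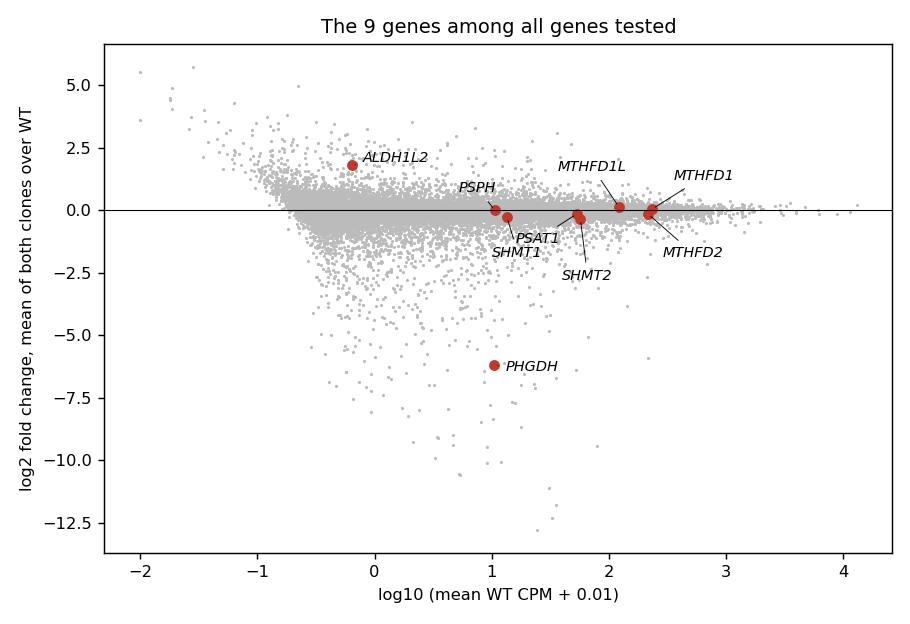
Mean log2 fold change of both clones over WT for all 20655 genes tested (grey) against their mean WT level (log10 of CPM plus 0.01), with the 9 genes in red. PHGDH lies near the lower edge of the cloud at -6.20, ALDH1L2 above it at 1.80, and the other 7 within the dense band around 0.

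The clones also differed from each other within the pathway. In KO clone 2 over KO clone 1, PHGDH differed by a log2 fold change of -1.77 (95% counting interval -3.10 to -0.66) and ALDH1L2 by -0.90 (SE 0.178), whereas PSAT1 was higher by 0.31 (SE 0.046), MTHFD1L by 0.20, MTHFD2 by 0.15 and MTHFD1 by 0.12. SHMT1, SHMT2 and PSPH differed by 0.05, 0.00 and 0.10. With 9 counts in KO clone 2 and 24 in KO clone 1, PHGDH passed the filter through WT alone and could not be tested with only the 2 clones fitted, so its difference between the clones is a description.

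Per length of the merged exons, the order of the genes in WT was MTHFD1L at 24.8 CPM per kb, PSAT1 at 24.1, MTHFD2 at 18.9, MTHFD1 at 13.5, SHMT2 at 12.4, PSPH at 3.85, SHMT1 at 1.92, PHGDH at 1.15 and ALDH1L2 at 0.066 CPM per kb. The libraries of MTHFD1L and PSAT1 overlapped in WT, and those of no other neighbours in the order overlapped in any group. In both clones the order was the same except that PHGDH, at 0.0285 CPM per kb in KO clone 1 and 0.0079 in KO clone 2, stood below ALDH1L2, at 0.310 in KO clone 1 and 0.166 in KO clone 2. The order depends on the length chosen: per length of the canonical transcript, a choice added after seeing the data, MTHFD1 led in WT at 74.3 CPM per kb, and PHGDH was at 5.64, between PSAT1 at 24.1 and PSPH at 5.38.

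The surroundings of PHGDH were followed next. Of 25 genes annotated within 300 kb of it, 1 passed the filter, NOTCH2, a receptor gene 167 kb away with 213 CPM in KO clone 1, 203 CPM in KO clone 2 and 201 CPM in WT; its mean log2 fold change was 0.05 (adjusted p = 0.155, edgeR). ZNF697, which runs the other way and starts 0.145 kb from the annotated start of PHGDH, had 6, 7 and 29 counts in KO clone 1, KO clone 2 and WT. A fit without the filter was added after these counts were seen. In that fit the log2 fold change of ZNF697 was -1.95 in KO clone 1, -2.12 in KO clone 2 and -2.04 in their mean. Its counts were few and already known, so these values are descriptions and are given without p-values. The start of ZNF697 lies 63.7 kb from the start of the canonical PHGDH transcript. The other 23 genes had at most 11 counts in a group.

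Genes whose profile over the 9 libraries was most like that of PHGDH were taken from 10880 genes at 5 CPM or more in some group, by Euclidean distance of log2 CPM relative to WT. The nearest was H2BC18, a histone H2B gene, at a distance of 1.78, with 3.55 CPM in KO clone 1, 3.57 CPM in KO clone 2 and 217 CPM in WT. DOCK9 (1.80), a guanine nucleotide exchange factor, followed with 0.258 CPM in KO clone 1, 0.0896 CPM in KO clone 2 and 7.45 CPM in WT, then NEURL1B (1.90) and SYNE2 (1.92). SLC16A10 and SLC30A4 came next, with no count in either clone and 5.22 and 5.31 CPM in WT. For ALDH1L2 the nearest were CYFIP1 (0.525), TMEM163 (0.553) and HOMER2 (0.608). The nearest to the other genes were HMGCS1 for PSAT1 (0.118), PANK1 for PSPH (0.169), PARP12 for SHMT1 (0.097), NOTCH1 for SHMT2 (0.075), PITPNB for MTHFD1 (0.057), DNAJA3 for MTHFD1L (0.077) and KIF3A for MTHFD2 (0.081).

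Pseudogene copies of the members can take their reads. Of 14 such loci for 5 members, 4 passed the filter, and the level of each was far below that of its parent except for PSPHP1, at 2.33 CPM in KO clone 1, 2.54 CPM in KO clone 2 and 2.72 CPM in WT, where PSPH itself had 10.2 CPM in KO clone 1, 11.0 CPM in KO clone 2 and 10.6 CPM in WT. MTHFD2P1 had 53 counts in KO clone 1, 45 in KO clone 2 and 9 in WT. On the log2 scale it was higher by 2.79 in KO clone 1 and by 2.16 in KO clone 2. It passed the filter on low counts only through the clones and lay near the floor of 3 counts in WT. Its calls and fold changes are therefore descriptions. Pairs aligned to several places were not counted, so values of PSAT1, PSPH, SHMT1, MTHFD1 and MTHFD2 are uncertain to that extent.

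Nearby steps of the pathway were compared in 9 lists with 143 genes, of which 122 were tested. In KO clone 1, 6 of them were called, 1 higher and 5 lower, and in KO clone 2, 4, 1 higher and 3 lower (7.58% and 5.96% of all genes). The median log2 fold change of the 122 genes in the mean of both clones was -0.01, and that of all genes was 0.00.

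SARDH, which moves a one-carbon unit from sarcosine to folate in mitochondria, fell in both clones, to 2.68 ± 0.218 CPM in KO clone 1 and 2.84 ± 0.212 CPM in KO clone 2, against 14.5 ± 1.24 CPM in WT. Its log2 fold change was -2.42 (adjusted p = 2.76e-21) in KO clone 1 and -2.34 (adjusted p = 1.88e-21) in KO clone 2, by edgeR. Of 13 other folate genes tested, 1 was called in the mean of both clones, SARDH, where 6.53% of all genes were called. SPTLC3, a subunit of the enzyme that uses serine for sphingolipids, fell to 2.13 ± 0.331 CPM in KO clone 1 and 1.88 ± 0.249 CPM in KO clone 2, against 5.89 ± 0.769 CPM in WT (mean log2 fold change -1.55, edgeR adjusted p = 5e-14). GLDC, the decarboxylase of the glycine cleavage system, fell by 1.94 on the log2 scale in KO clone 1 (adjusted p = 3.08e-19) and differed by 0.02 in KO clone 2 (adjusted p = 0.898, edgeR). It was at 2.95 ± 0.284 CPM in KO clone 1, 11.5 ± 0.399 CPM in KO clone 2 and 11.3 ± 0.355 CPM in WT. The difference of GLDC between the clones was itself called, at 1.96 in KO clone 2 over KO clone 1 (edgeR adjusted p = 8.7e-19), where 2.82% of all genes were called between the clones.

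None of the 10 serine and glycine transporters tested was called; SLC1A4, a transporter of neutral amino acids including serine, was lower by 0.87 on the log2 scale (adjusted p = 7.63e-24, edgeR), just under the minimum, with 47.1 CPM in KO clone 1, 45.5 CPM in KO clone 2 and 84.4 CPM in WT. None of the 10 methionine cycle genes, 14 purine and pyrimidine synthesis genes, 20 aminoacyl-tRNA synthetases or 8 lower glycolysis genes was called in the mean of both clones, where 6.53% of all genes were. At adjusted p alone, 5 of the 8 glycolysis genes were lower and 0 higher in that mean (18.9% and 16.4% of all genes). The clones were not alike: 5 were lower and 1 higher in KO clone 1 (3877 and 3598 of all 20655 genes). In KO clone 2, 2 were lower and 0 higher (3327 and 2966 of all genes). PGK1, the step before 3-phosphoglycerate, was lower by 0.30 in the mean (adjusted p = 3.06e-10, edgeR). Of 26 genes tested of the ATF4 arm, known to switch on PHGDH, PSAT1 and MTHFD2 when amino acids are short, 2 were called, both lower (6.53% of all genes in either direction). TRIB3, an ATF4 target, was at 5.26 ± 0.307 CPM in KO clone 1, 6.39 ± 0.608 CPM in KO clone 2 and 12.6 ± 0.378 CPM in WT (mean -1.12, edgeR adjusted p = 2.28e-15). STC2, a secreted glycoprotein, was at 0.10 ± 0.0427 CPM in KO clone 1, 0.419 ± 0.212 CPM in KO clone 2 and 1.07 ± 0.133 CPM in WT (mean -2.38). STC2 passed the filter on low counts only through WT and lay near the floor of 3 counts in KO clone 1. Its call and fold change are therefore descriptions. ATF4 itself was higher by 0.25 (adjusted p = 3.25e-09, edgeR), and ASNS, the asparagine synthetase, differed by -0.08 (adjusted p = 0.774, edgeR).

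Among 9 tested genes reported to act on serine synthesis genes, 1 was called in the mean of both clones (6.53% of all genes). MYCN rose to 19.1 ± 1.47 CPM in KO clone 1 and 18.9 ± 0.861 CPM in KO clone 2, against 3.57 ± 0.16 CPM in WT (mean log2 fold change 2.41, edgeR adjusted p = 2.66e-26), while MYC was at 681 CPM in KO clone 1, 713 CPM in KO clone 2 and 703 CPM in WT (mean -0.01, adjusted p = 0.817). EHMT2, a histone methyltransferase, was lower by 0.31 (adjusted p = 1.1e-08, edgeR), under the minimum.

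**Figure D5:**
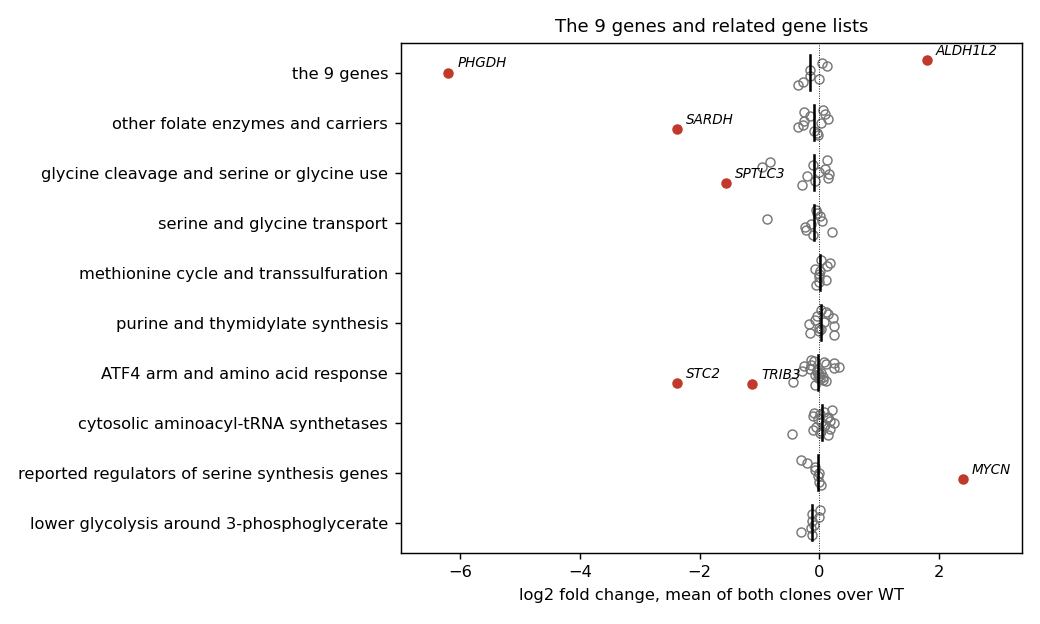
Mean log2 fold change of both clones over WT for the 9 genes and for the tested genes of 9 related lists, one row per list; filled points are called genes, black bars list medians. The called genes outside the 9 are SARDH, SPTLC3, TRIB3 and STC2 (lower) and MYCN (higher).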

How the data were processed

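Per the submitters' processing notes and the series text, the authors aligned paired-end reads with STAR in 2-pass mode to GRCh38; versions and annotation are not given in the sources used here. Each library's deposited file holds raw counts per gene in 3 ways, without regard to strand and for each strand. The authors' deposited table adds log2 fold changes and p-values from DESeq2 for both clones together against WT; its fold changes divided by their SE equal its test statistic, as for values without shrinkage, although the series text names apeglm. Its counts equalled those without regard to strand in 9 of 9 libraries. The 9 deposited normalized per-sample columns of that table were not used.

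One strand held 92.0% to 92.3% of the stranded counts and was used. Counts were fitted with edgeR 4.0.16 in R 4.3.3 (filterByExpr, TMM scaling, robust quasi-likelihood, 1 coefficient per group, 9 libraries). The filter left 20655 genes. SE was derived from the log2 fold change and its F statistic, and is too small where counts are few; for PHGDH exact 95% counting intervals (binomial, conditional on the sum of both groups' counts), added after its values were seen, replace it. They cover counting error only. Depth gives a floor of 3 counts of 0.0695 to 0.107 CPM, which covers counting error only. DESeq2 1.42.0, other scaling, filter, strand and sample choices were alternatives. Positions came from GENCODE release 44.

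The members and lists were chosen with earlier results of these data known. Named list genes were those called in both clones, those called in the mean of both clones, and up to 4 more by smallest adjusted p at 1 CPM or more. ASNS, MYC, GART and ATIC fall outside that rule and were chosen after their values were seen. Replicate numbers did not pair the libraries.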

Additional observations from a re-analysis of the deposited data

Results flagged for a closer look

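GLDC differed between the clones, by edgeR's contrast of KO clone 2 over KO clone 1, at a log2 fold change of 1.96 (adjusted p = 8.7e-19), and was higher in 3 of 3 libraries of KO clone 2. PHGDH and STC2 also passed the thresholds of that contrast, but both passed the filter on low counts only through WT and could not be tested with only the 2 clones fitted, so their values are descriptions. For PHGDH the log2 fold change was -1.77, with 9 counts over the 3 libraries of KO clone 2 and 24 over those of KO clone 1. For STC2 it was 2.04, at 0.419 ± 0.212 CPM in KO clone 2 and 0.10 ± 0.0427 CPM in KO clone 1 (SD, n = 3).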

How the results depend on the processing

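As a description, the log2 fold change of PHGDH over the alternatives run was -5.40 to -5.06 in KO clone 1 and -7.60 to -6.86 in KO clone 2. That of ALDH1L2 was 2.14 to 2.41 in KO clone 1 and 1.24 to 1.5 in KO clone 2, except without regard to strand, at 0.36 in KO clone 1 and 0.18 in KO clone 2. Without KO clone 1 replicate 1, the library that stood apart, KO clone 1 gave -5.40 for PHGDH and 2.33 for ALDH1L2. Over all genes, leaving out 1 library in turn gave 1523 to 1651 calls for KO clone 1 (1565 with all libraries), 1215 to 1319 for KO clone 2 (1232), 1328 to 1465 for the mean of both clones (1349) and 554 to 591 for KO clone 2 over KO clone 1 (582). For KO clone 2 over KO clone 1, the list genes called were 1 with only the 2 groups compared in the fit, in place of 2; STC2 was not tested there.

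Same-numbered libraries deviated from their group means with correlations of -0.0137 to 0.0122, so the numbers do not pair them. With the replicate block the calls were 1557, 1228, 1349 and 577 in the same order of comparisons, and PHGDH was at -6.20 in the mean of both clones. Over the named list genes, 1640 of 1702 alternative values kept their side of the threshold and direction, 62 lost the threshold and 0 reversed. The low counts of PHGDH in KO clone 2 and of ALDH1L2 in WT limit the precision of their fold changes.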

Other observations

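Of 14 genes of purine and pyrimidine synthesis, of which only some steps use folate one-carbon units, 6 were higher and 2 lower at adjusted p alone in the mean of both clones (edgeR), where 16.4% of all genes were higher and 18.9% lower. In KO clone 1, 5 of the 14 were higher and 4 lower (3598 and 3877 of all 20655 genes). In KO clone 2, 8 were higher and 1 lower (2966 and 3327 of all genes). CAD (0.15) and UMPS (0.25), which make UMP without such a unit, were among the higher. So was ATIC, which uses one (0.12, edgeR adjusted p = 0.000437). GART, which also uses one, differed by -0.06 (edgeR adjusted p = 0.0546), with -0.15 in KO clone 1 and 0.02 in KO clone 2. A link to one-carbon use was not tested. IMPDH2, the committed step of guanine nucleotide synthesis, was at 149 CPM in KO clone 1, 146 CPM in KO clone 2 and 124 CPM in WT (0.25, adjusted p = 7.22e-10). Of 20 cytosolic aminoacyl-tRNA synthetases, 9 were higher and 4 lower at adjusted p alone in the mean of both clones (16.4% and 18.9% of all genes). In KO clone 1, 6 were higher and 5 lower (3598 and 3877 of all 20655 genes). In KO clone 2, 11 were higher and 2 lower (2966 and 3327 of all genes). WARS1, the tryptophanyl enzyme, was at 70.0 CPM in KO clone 1, 95.1 CPM in KO clone 2 and 112 CPM in WT (mean -0.45, edgeR adjusted p = 1.62e-15).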
